A study of Mus musculus with 10 samples.

Results

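The amyloid precursor protein gene App, its paralogs Aplp1 and Aplp2, the secretase genes Adam10, Bace1 and Psen2, the sorting receptor gene Sorl1 and the apolipoprotein genes Apoe and Clu were followed in hippocampal synaptoneurosomes. These 9 genes were chosen by name and were found by Ensembl identifier in the gene table, which holds 22255 genes. Their 72 transcripts were taken from a table of 102392 transcripts, with App transcripts divided by whether they hold the exon of the Kunitz protease inhibitor (KPI) domain. Synaptoneurosomes are a fraction of pinched-off and resealed presynaptic and postsynaptic compartments. All mice were wild-type C57Bl/6J. The vehicle group gave 5 libraries and the AM6545 group, which received this peripherally restricted antagonist of the cannabinoid CB1 receptor sub-chronically, gave 5 libraries. Dose, exact duration, age and sex are not stated in the labels, nor is it stated whether a library came from a single animal or a pool, so n counts libraries and p-values measure the spread between them.

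The amyloid precursor protein is a transmembrane protein that is cut by a sheddase, ADAM10 at the cell surface or BACE1 in endosomes, and then by gamma-secretase, of which a presenilin is the catalytic subunit. The BACE1 route releases amyloid-beta. SORL1 carries the precursor away from the compartments where BACE1 acts, and the lipid carriers apolipoprotein E and clusterin bind amyloid-beta outside the cell. In brain, neurons mainly make the App form without the KPI exon, and other cells make more of the KPI-containing forms, while apolipoprotein E and clusterin come chiefly from astrocytes.

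The sequences below show the exons that separate these forms, since the App part of the results turns on them. They were read from the GENCODE M21 transcript sequences, divided at the exons that this release places on GRCm38. In App, which lies on the minus strand at chr16:84949685-85173766, the KPI exon is exon 7 of transcript App-206 at chr16:85043576-85043743. The exon after it, often called OX2, lies at chr16:85040251-85040307. In Aplp2, on the minus strand at chr9:31149557-31211815, the KPI exon lies at chr9:31167561-31167728. All are coding. Capitals mark the cassette exon and lower-case letters the 15 bases of the flanking exons. In the joined sequence of the forms without a cassette exon, lower case ends exon 6 and capitals begin the exon spliced to it.
App without KPI and OX2 (App-201): aggaggtggtccgagTTCCCACGACAGCAG
App KPI exon (App-206): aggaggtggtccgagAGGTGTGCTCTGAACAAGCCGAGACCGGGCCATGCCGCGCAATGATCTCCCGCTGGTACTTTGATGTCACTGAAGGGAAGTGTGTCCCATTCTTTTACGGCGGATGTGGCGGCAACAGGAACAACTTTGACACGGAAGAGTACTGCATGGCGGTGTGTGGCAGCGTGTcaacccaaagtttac
App OX2 exon (App-206): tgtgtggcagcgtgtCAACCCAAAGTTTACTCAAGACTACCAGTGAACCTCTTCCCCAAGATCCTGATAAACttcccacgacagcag
Aplp2 without KPI (Aplp2-202): ttcacgatgttaaagTTCCCCCGACTCCCC
Aplp2 KPI exon (Aplp2-201): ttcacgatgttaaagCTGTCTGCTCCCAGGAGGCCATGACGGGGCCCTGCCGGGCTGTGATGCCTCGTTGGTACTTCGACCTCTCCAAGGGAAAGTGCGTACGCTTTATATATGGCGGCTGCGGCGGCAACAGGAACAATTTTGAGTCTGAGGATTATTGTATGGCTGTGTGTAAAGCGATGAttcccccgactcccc
Both KPI exons are 168 bases long, which adds 56 codons, and 114 of the 168 bases (67.9%) are identical between App and Aplp2 without gaps. Aplp1 has no KPI exon.

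The other 7 genes lie, in the same release, at chr7:30434982-30445535 on the minus strand (Aplp1), chr9:70678997-70780229 on the plus strand (Adam10), chr9:45838580-45864399 on the plus strand (Bace1), chr1:180227004-180263438 on the minus strand (Psen2), chr9:41964720-42124297 on the minus strand (Sorl1), chr7:19696109-19699188 on the minus strand (Apoe) and chr14:65968483-65981547 on the plus strand (Clu). Exons of App, Bace1 and Sorl1 overlap exons on the opposite strand, those of Gm49227 for App, of Rnf214, Gm16536 and Gm49338 for Bace1 and of Gm16214 for Sorl1. Whether the quantification used strand is not stated, so reads of these overlaps cannot be assigned with certainty. The share of a gene's 31-base words found in transcripts of other genes was 1.05% for App and at most 0.173% for the other 8. Only the sense direction of transcripts was searched, so words shared with the opposite-strand overlaps are not in these shares.

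Library totals ran from 18106112 to 25899794 estimated counts, and the 9 genes together held 0.867% to 1.33% of them. Synaptic markers were present in every library, with Snap25 at 2946 to 4494 CPM (counts scaled by the effective library size) and Syp at 1416 to 1856 CPM. RNA of other compartments was present too, since the astrocyte gene Aldoc stood at 1578 to 2601 CPM and Ttr, the choroid plexus transthyretin gene, at 41.5 to 4657 CPM. None of 10 marker scores had an adjusted p under 0.05 between the groups (exact permutation tests, all adjusted p = 0.992). In such a mixed fraction, fewer cells of a type and less RNA per cell cannot be told apart.

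On a scale per length, as TPM (counts per transcript length, scaled to a fixed total), Apoe was the most abundant of the 9 genes with 4684 ± 992 TPM (SD over all 10 libraries). Clu followed with 2298 ± 365 TPM, Aplp1 with 1627 ± 227 TPM, App with 1494 ± 205 TPM and Aplp2 with 522 ± 82.3 TPM. The processing genes were far lower. Sorl1 stood at 57.9 ± 7.93 TPM, Bace1 at 30.99 ± 4.19 TPM, Psen2 at 24.1 ± 2.63 TPM and Adam10 at 24.1 ± 3.66 TPM. Apoe ranked 14 among all genes on this scale and App ranked 63. The ranges of Clu and Aplp1, of Aplp1 and App, of Bace1 and Psen2, and of Psen2 and Adam10 overlapped across libraries. Aplp1 was above App in 9 of 10 libraries, whereas Psen2 was above Adam10 in 4 of 10, so these last 2 have no order.

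**Figure D1:**
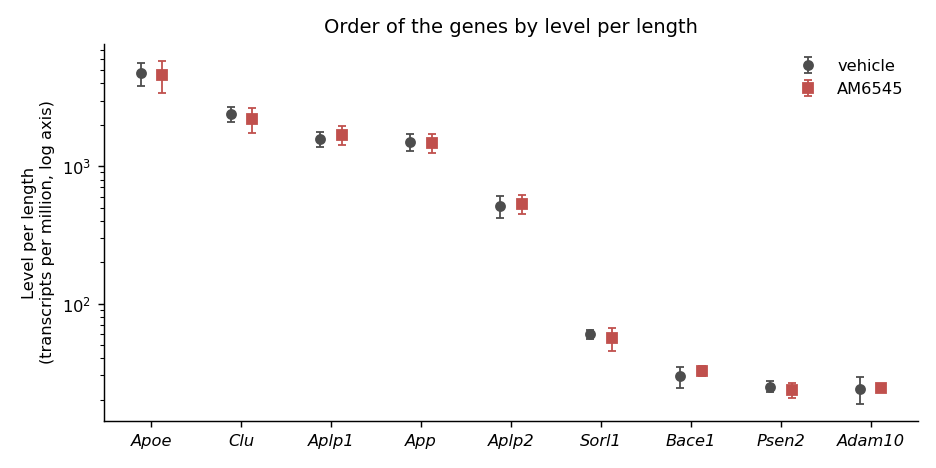
Level per length of the 9 genes in TPM on a log axis, ordered by the mean over 10 libraries; points are group means (circles vehicle, squares AM6545) and bars are SD, n = 5 each. The 2 apolipoproteins and the 3 precursors sit above 500 TPM on average and the 4 processing genes below 60 TPM.

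Across all genes, edgeR's quasi-likelihood test called 0 of 14358 genes (0%) at an adjusted p under 0.05, while 270 (1.88%) had an unadjusted p under 0.05. The DESeq2 Wald test called 0 genes and limma-voom with quality weights 1. In 42 genes (0.293%) the CPM values of the groups did not overlap. Of the 9 genes, 0 had an adjusted p under 0.05, 0 an unadjusted p under 0.05 and 0 had groups that did not overlap. Unadjusted p-values ran from 0.268 for Psen2 to 0.997 for Aplp2. The median log2 fold change of the 9 was -0.05, beside -0.0057 over all genes, with 4 above 0 and 5 below. Every 95% interval of a fold change lay between 0.706 and 1.27, so larger changes lay outside these intervals and smaller ones were not resolved.

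The 3 precursor genes stood at nearly the same level in both groups. App had 2263, 2157, 2986, 2724 and 2466 CPM in vehicle libraries 1 to 5 and 2645, 2049, 2808, 2692 and 1998 CPM in AM6545 libraries 1 to 5. The groups overlapped, with vehicle library 3 highest and AM6545 library 5 lowest. The means were 2519 ± 339 and 2438 ± 384 CPM (SD, n = 5 each), a fold change of 0.968 with a 95% interval of 0.799 to 1.17 (edgeR, adjusted p = 0.9998). Aplp1, which encodes a nearly neuron-restricted paralog, had 1684, 1727, 2068, 2076 and 1978 CPM with vehicle and 2161, 1644, 2280, 2282 and 1691 CPM with AM6545. In the AM6545 group 3 libraries exceeded all vehicle libraries and library 2 lay below them all. The fold change was 1.06 (0.880 to 1.27; edgeR, adjusted p = 0.9998). Aplp2, the broadly expressed paralog, had 664.5, 851.4, 1047, 880.9 and 878.5 CPM with vehicle and 912.1, 705.1, 1004, 969.7 and 731.9 CPM with AM6545. Its lowest and highest values were both in vehicle libraries, 1 and 3. The means of 864.4 ± 136 and 864.6 ± 138 CPM gave a fold change of 1.0003 (0.823 to 1.22; edgeR, adjusted p = 0.9999).

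AM6545 libraries 2 and 5 were the 2 lowest of their group for App, Aplp1 and Aplp2 alike, so that much of the spread was shared by the 3 genes. A ratio of 2 genes within a library leaves out such shared spread and any scaling, and all 36 pairs of the 9 genes were therefore compared after the levels had been seen. The count ratio of App to Aplp1 was 1.34, 1.25, 1.44, 1.31 and 1.25 in vehicle libraries 1 to 5 and 1.22, 1.25, 1.23, 1.18 and 1.18 in AM6545 libraries 1 to 5. The highest AM6545 ratio, 1.246, lay just under the lowest vehicle ratio, 1.247, so the groups did not overlap, though by a narrow gap. The mean ratio was 1.32 ± 0.0814 with vehicle and 1.21 ± 0.0303 with AM6545 (SD, n = 5 each), a difference of -0.12 on the log2 scale. The exact permutation test gave p = 0.00794, the smallest that 5 against 5 libraries allow, and the p adjusted over the 36 pairs was 0.286, which does not pass. This was the only pair of the 36 with p under 0.05 or without overlap. Among 9602 other genes with a mean of at least 10 CPM, 1 (0.0104%) had a ratio to App whose groups did not overlap, which was Aplp1, and for ratios to Aplp1 the count was 6 (0.0625%).

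**Figure D2:**
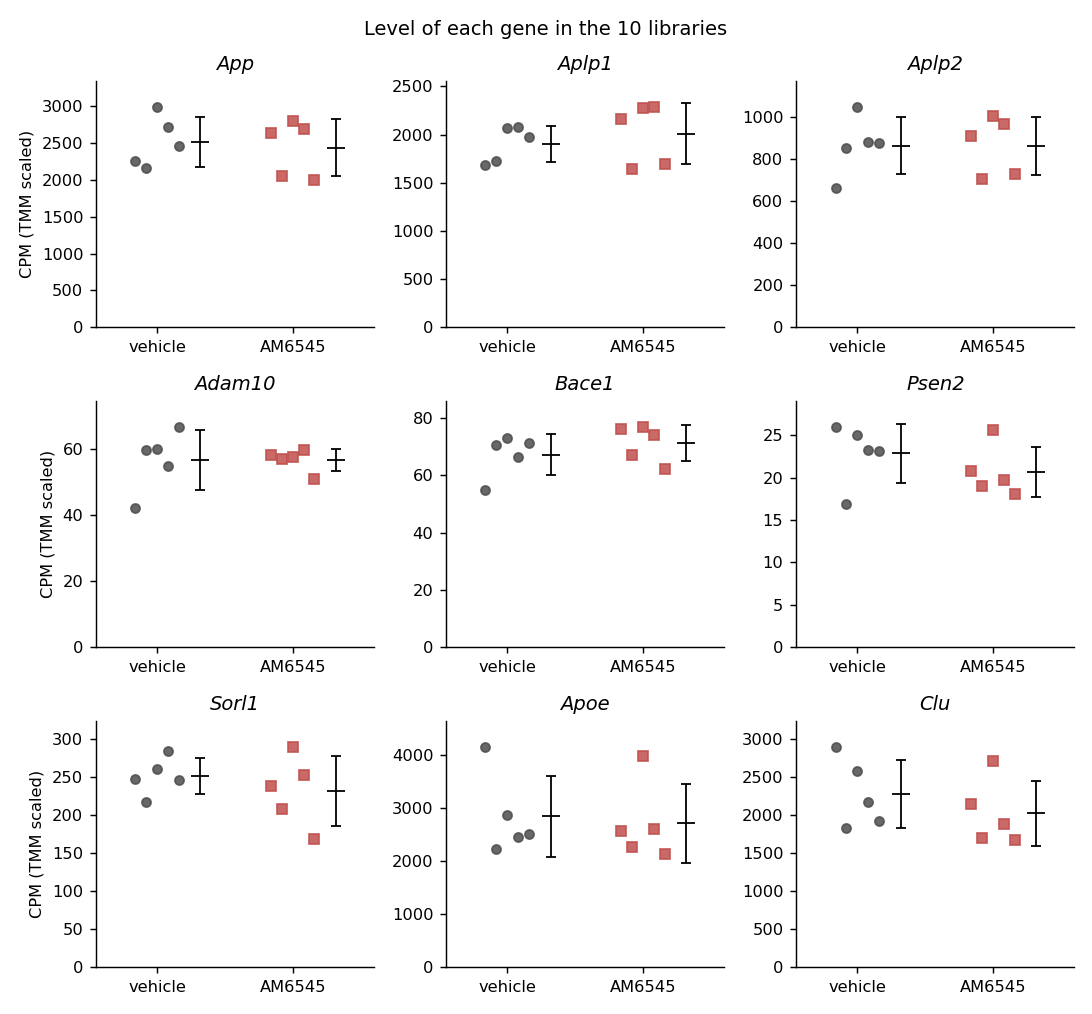
Level of each of the 9 genes in CPM (linear axes from 0) in every vehicle library (circles) and AM6545 library (squares), drawn in the order of replicates 1 to 5, with the group mean and SD (n = 5) beside them. The groups overlap in all 9 panels, and Apoe is high in vehicle library 1 and AM6545 library 3.

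The sheddase and presenilin genes were low and differed little. Adam10, the main alpha-secretase, had 42.3, 60.0, 60.2, 54.8 and 66.7 CPM with vehicle and 58.4, 56.97, 57.8, 60.0 and 51.0 CPM with AM6545. All AM6545 values lay inside the vehicle range, and the fold change was 1.0007 (0.849 to 1.18; edgeR, adjusted p = 0.9998). Bace1, the beta-secretase, had 54.9, 70.7, 73.1, 66.5 and 71.2 CPM with vehicle and 76.1, 67.1, 76.8, 74.0 and 62.2 CPM with AM6545. Vehicle library 1 was lowest for both sheddases, and 3 AM6545 libraries exceeded all vehicle libraries for Bace1. Its means were 67.3 ± 7.32 and 71.2 ± 6.35 CPM, a fold change of 1.06 (0.913 to 1.23; edgeR, adjusted p = 0.9998). These counts include Bace1-204, a transcript annotated as retaining an intron, with a log2 fold change of 0.21. The protein-coding Bace1-201 and Bace1-202 had 0.02 and -0.00067 (edgeR, all adjusted p = 0.9999). Psen2, a presenilin, had 25.97, 16.9, 25.0, 23.3 and 23.2 CPM with vehicle and 20.8, 19.1, 25.7, 19.7 and 18.1 CPM with AM6545. Vehicle library 2 was lower than all others, and 4 of the 5 AM6545 values lay below the other 4 vehicle values. The means were 22.9 ± 3.53 and 20.7 ± 2.98 CPM, a fold change of 0.903 (0.748 to 1.09; edgeR, adjusted p = 0.9998).

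Sorl1 had 247.6, 217.0, 260.3, 283.6 and 245.9 CPM with vehicle and 238.3, 207.1, 289.0, 252.3 and 167.9 CPM with AM6545. The AM6545 libraries held both the highest value, in library 3, and the lowest, in library 5. The mean was 250.9 ± 24.2 CPM with vehicle and 230.9 ± 45.9 CPM with AM6545, a fold change of 0.920 (0.762 to 1.11; edgeR, adjusted p = 0.9998).

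The 2 apolipoprotein genes varied most between libraries and in a shared way. Apoe had 4158, 2230, 2878, 2465 and 2522 CPM with vehicle and 2568, 2273, 3993, 2606 and 2135 CPM with AM6545. A single library in each group, vehicle 1 and AM6545 3, stood well above the other 8, which lay between 2135 and 2878 CPM. The coefficient of variation was 26.9% with vehicle and 27.3% with AM6545, against 13.5% and 15.8% for App. The means of 2851 ± 767 and 2715 ± 742 CPM gave a fold change of 0.952 (0.726 to 1.25; edgeR, adjusted p = 0.9998). Without vehicle library 1 the log2 fold change was 0.11 in place of -0.07. Clu, which encodes clusterin, had 2897, 1835, 2578, 2178 and 1924 CPM with vehicle and 2146, 1692, 2713, 1889 and 1675 CPM with AM6545. It was highest in the same 2 libraries as Apoe, and vehicle library 3 was high as well. Its means were 2282 ± 449 and 2023 ± 430 CPM, and its log2 fold change of -0.17 ± 0.16 (SE) was the largest in size of the 9 with all 10 libraries (fold change 0.886, 0.706 to 1.11; edgeR, adjusted p = 0.9998). Leaving out a single library gave -0.07 (without vehicle 1) to -0.30 (without AM6545 3) for Clu. Without vehicle 1, Sorl1 was the largest in size (-0.12), and Apoe, Psen2, Adam10, App and Aplp2 also exceeded Clu. The red blood cell marker score was also highest in AM6545 library 3 (7.46 on the log2 scale) and vehicle library 1 (6.78), with vehicle library 2 (6.77) close to the latter, and its part in the apolipoprotein values was not tested.

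App RNA in this fraction was almost all of the form without the KPI exon. App-201, which encodes the 695-residue precursor and joins exon 6 directly to the exon after OX2, held 91.7 ± 1.82% of App counts with vehicle and 92.6 ± 1.36% with AM6545 (SD, n = 5 each). App-202, the 751-residue form with KPI alone, held 4.15 ± 1.39% and 3.34 ± 0.988%. App-206, the 770-residue form with both cassettes and a last exon of 5748 bases, held 2.21 ± 0.294% and 2.23 ± 0.220%, and App-203, with both cassettes but without the 54-base exon 15, held 1.77 ± 0.633% and 1.77 ± 0.476%. App-204, with KPI but without exon 15, had 168.7 estimated counts in vehicle library 1 and was listed at 0 in the other 9. Of 31848 transcripts tested with edgeR, 1 (0.00314%) had an adjusted p under 0.05 and 627 (1.97%) an unadjusted p under 0.05. Of the 28 tested transcripts of the 9 genes, 0 passed at either level. The log2 fold changes were -0.04 ± 0.14 for App-201, -0.34 ± 0.29 for App-202, -0.02 ± 0.17 for App-206 and -0.02 ± 0.28 for App-203 (SE; edgeR, all adjusted p = 0.9999). For App-202 it ran from -0.17 (without AM6545 2) to -0.51 (without AM6545 3) when a single library was left out.

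The KPI-containing share of App was 8.51, 10.6, 8.98, 5.73 and 7.28% in vehicle libraries 1 to 5 and 7.04, 5.77, 8.95, 6.46 and 8.62% in AM6545 libraries 1 to 5. The highest and the lowest share were both in the vehicle group, in libraries 2 and 4, and the groups overlapped. The means of 8.22 ± 1.83% and 7.37 ± 1.37% differed by -0.852 percentage points (exact permutation p = 0.421; 0.701 adjusted over 5 cassette shares). Leaving out a single library moved this difference from -0.254 (without vehicle 2) to -1.47 points (without vehicle 4), with the same sign throughout. Wilson 95% intervals of single libraries were narrow, for example 5.56 to 5.91% in vehicle library 4 and 10.3 to 10.9% in vehicle library 2, and they cover counting error only. The OX2-containing share was 3.99 ± 0.526% and 4.03 ± 0.472% (exact permutation p = 0.937), and the share without exon 15 was 1.85 ± 0.631% and 1.80 ± 0.467% (exact permutation p = 0.865). The OX2 share includes App-206, with 2.21% and 2.23% of App counts and the long last exon, and was not repeated without it.

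Aplp2 differed from App in this respect, since its KPI-containing share was 48.7, 51.1, 51.5, 49.1 and 50.2% with vehicle and 48.9, 46.7, 49.7, 49.7 and 50.3% with AM6545. It exceeded the App share in 10 of 10 libraries, by 4.81 to 8.57 times, and varied little. The means were 50.1 ± 1.20% and 49.0 ± 1.42% (SD, n = 5 each; exact permutation p = 0.238). A further 36-base Aplp2 exon, near the membrane-spanning part, was held by 52.4 ± 2.02% and 54.8 ± 2.14% (exact permutation p = 0.127). This share is nearly the complement of the KPI share. Aplp2-201 holds the KPI exon only, Aplp2-202 the 36-base exon only, and the less abundant Aplp2-203 holds both. None of the 5 cassette shares had an adjusted p under 0.05.

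**Figure D3:**
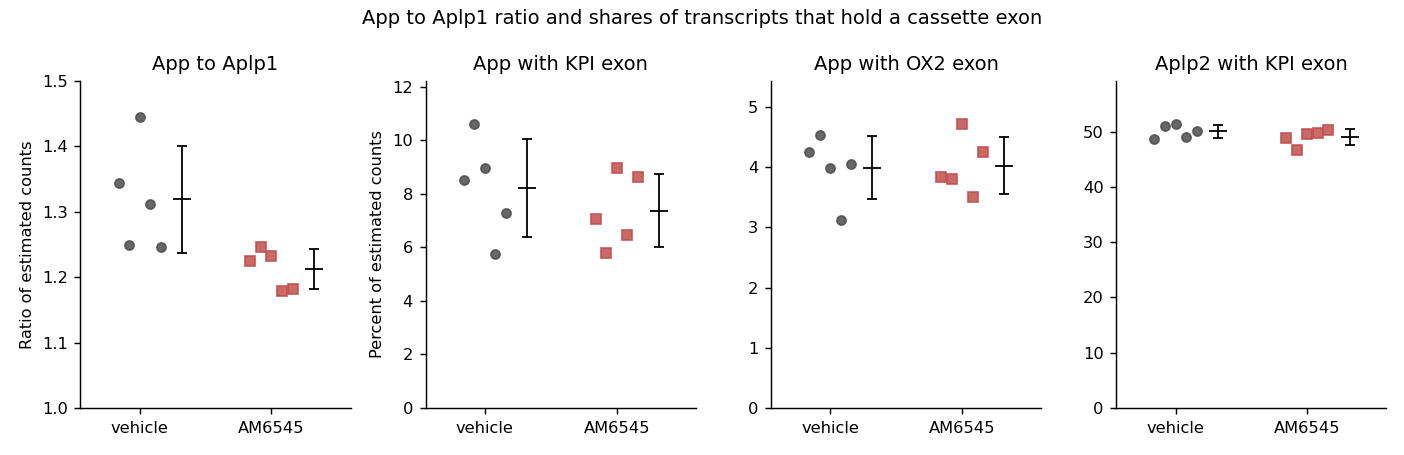
Count ratio of App to Aplp1 (axis from 1.0) and the percent of estimated counts in App transcripts with the KPI exon, App transcripts with the OX2 exon and Aplp2 transcripts with the KPI exon (axes from 0), per vehicle library (circles) and AM6545 library (squares), with mean and SD, n = 5 each. The ratio shows no overlap of the groups by a narrow gap, the shares overlap, and Aplp2 is near 50% KPI-containing where App is below 11%.

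The other 8 genes differed in how far a single transcript held their counts. Aplp1-201, Adam10-201 and Clu-201 held 99.9%, 100% and 99.8% of their gene's counts with vehicle, and Sorl1-201 held 97.8 ± 0.694%. Bace1-201 held 50.9 ± 5.02% with vehicle and 48.8 ± 3.86% with AM6545, and 31.3 ± 2.59% and 34.2 ± 1.95% went to Bace1-204, a transcript annotated as retaining an intron. Psen2-205 held 51.5 ± 12.2% and 48.1 ± 4.96%. Aplp2-202, without KPI, held 45.6 ± 1.11% and 46.3 ± 1.07%. Apoe-209 held 85.4 ± 3.21% with vehicle and 81.8 ± 1.85% with AM6545, the smallest p of the 9 leading transcripts (exact permutation p = 0.0635, 0.571 adjusted over the 9). The rest of Apoe was almost all Apoe-206, with 14.2 ± 3.27% and 17.9 ± 1.85%. None of the 9 leading shares had an adjusted p under 0.05.

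The wider pathway was read from 5 lists with 50 genes, of which 48 were tested, and 0 passed at an adjusted and 0 at an unadjusted p under 0.05 in either direction. The 6 genes of the gamma-secretase list, which holds the other subunits of that enzyme, had a median log2 fold change of -0.10, with 1 above 0, and the smallest p was that of Psenen, the presenilin enhancer subunit (36.9 ± 7.60 and 33.0 ± 5.11 CPM; log2 fold change -0.16, edgeR, adjusted p = 0.9998). The 7 other sheddases and amyloid-degrading peptidases had a median of 0.06, with 5 above 0. Bace2, the paralog of Bace1, had the smallest p of all 48, with 5.40 ± 1.58 CPM under vehicle and 7.05 ± 1.41 CPM under AM6545 (log2 fold change 0.38 ± 0.21 (SE), edgeR, adjusted p = 0.9998). For Bace2, 3 AM6545 libraries lay above all vehicle libraries.

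The 12 adaptors and binding proteins had a median log2 fold change of 0.05, with 7 above 0. Apba2, an adaptor that binds the precursor's cytoplasmic tail, had the smallest p there (151.4 ± 20.8 and 166.0 ± 20.4 CPM; log2 fold change 0.13, edgeR, adjusted p = 0.9998). The list of retromer, GGA and VPS10 sorting holds mostly genes that move the precursor between endosomes and the Golgi, and also Picalm. Its 12 genes had a median of 0.04 with 9 above 0. Vps26b, a retromer subunit, led that list (99.6 ± 13.4 and 111.8 ± 10.97 CPM; log2 fold change 0.17, edgeR, adjusted p = 0.9998). Of the 13 apolipoproteins, lipid-loading proteins and receptors, 11 were tested, with a median of -0.04 and 2 above 0, and Apom and Lrp2 were too low. The smallest p was that of Abcg1, a transporter that loads lipid on lipoproteins (25.4 ± 1.94 and 22.9 ± 4.09 CPM; log2 fold change -0.15, edgeR, adjusted p = 0.9998). The median over all tested genes was -0.0057.

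**Figure D4:**
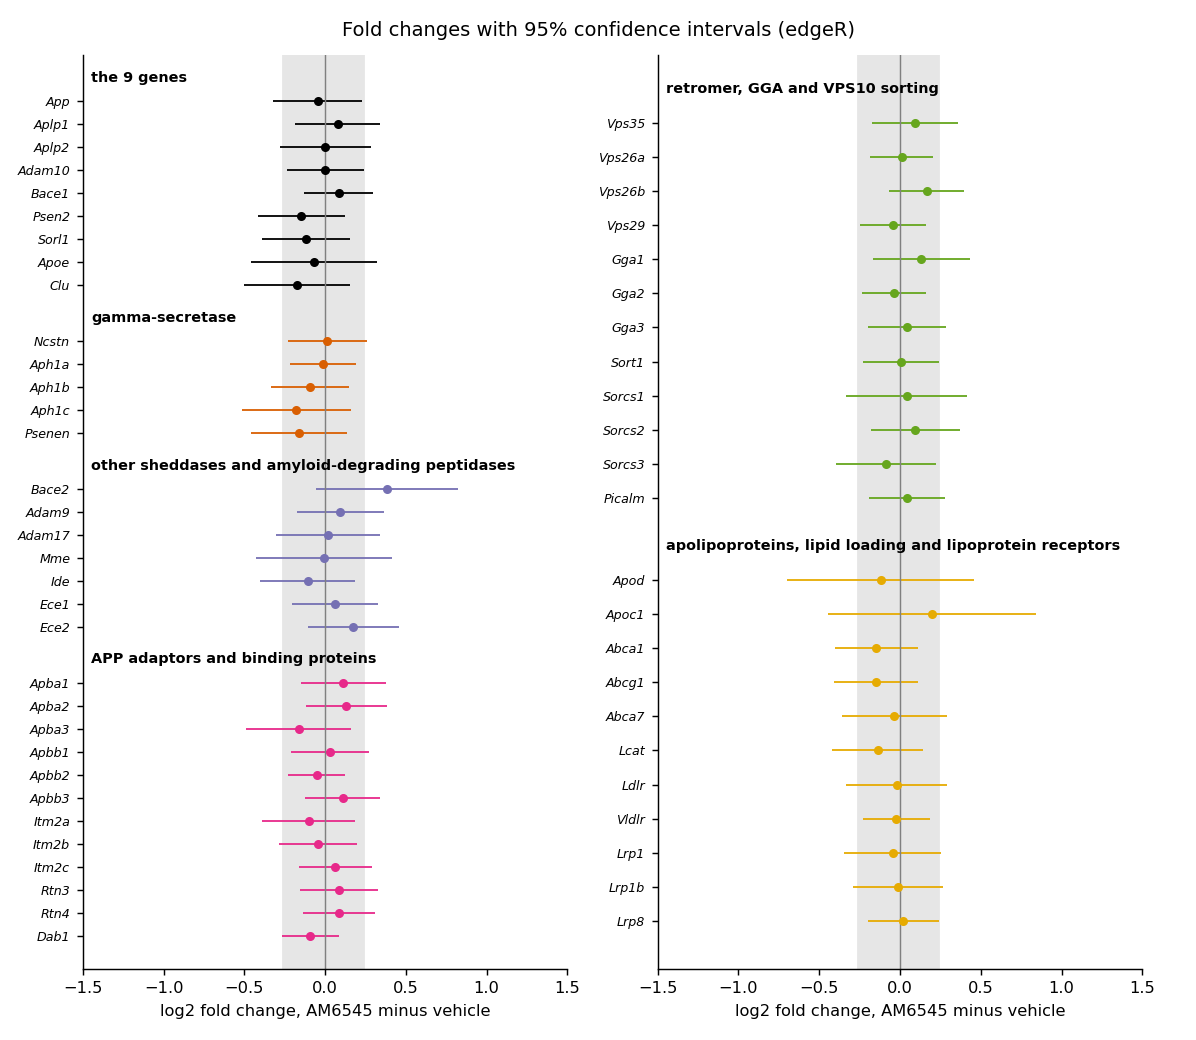
Log2 fold changes (AM6545 minus vehicle) with 95% confidence intervals from edgeR for the 9 genes and for all but 1 of the 48 tested pathway genes; the grey band spans the 5th to 95th percentile of all 14358 tested genes (-0.26 to 0.24). Every interval drawn holds 0.

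Relations to cell content were read across the 10 libraries, from the mean log2(CPM + 1) of 4 marker lists, which gave 36 relations with the 9 genes (permutation tests with 100000 resamples). Over all 10 libraries Bace1 followed the astrocyte score most closely, with Pearson r = 0.924 (permutation p = 2e-05, adjusted p = 0.00072). Its Spearman rho was 0.939 (permutation p = 0.00024, adjusted p = 0.00864). Without the 2 libraries farthest from the median score, vehicle 1 and AM6545 3, r was 0.920. Of 14348 tested genes outside the astrocyte list, 13 (0.0906%), Bace1 included, had an r at least as high. Aplp2 had r = 0.851 (permutation p = 0.00152, adjusted p = 0.0274) and rho = 0.867 (permutation p = 0.00213, adjusted p = 0.0256), and r = 0.763 without these 2 libraries. An r at least as high was found for 0.976% of the genes. Without vehicle library 4, which stood apart in choroid plexus markers, Aplp2 had r = 0.852 with an adjusted p of 0.05004, just past the threshold. Aplp1 had r = 0.778 (permutation p = 0.00474, adjusted p = 0.0569) and rho = 0.867 (permutation p = 0.0021, adjusted p = 0.0256). No other relation had an adjusted Pearson or Spearman p under 0.05.

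The astrocyte-made carriers did not follow the astrocyte score over all libraries. Apoe had r = 0.123 and rho = 0.321 (permutation p = 0.734 and 0.368, adjusted 0.852 and 0.736), and Clu had r = 0.178 and rho = 0.248 (permutation p = 0.622 and 0.493, adjusted 0.822 and 0.778). Vehicle library 1 had the lowest astrocyte score of all (7.56) and the highest Apoe and Clu. AM6545 library 3 had the highest score (8.03) and also high Apoe and Clu. Without these 2 libraries r was 0.693 for Apoe and 0.622 for Clu. Within the groups r had opposite signs, -0.874 with vehicle and 0.902 with AM6545 for Apoe, and -0.629 and 0.922 for Clu. These within-group values were not tested.

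The KPI-containing share of App, compared with the same 4 scores after its values had been seen, rose with the choroid plexus and ependyma score. The score was 1.93 in vehicle library 4, where the share was lowest, and 3.56 to 4.26 in AM6545 libraries 1, 2 and 4, where the share was 5.77 to 7.04%. It was 4.82 to 5.22 in the other 6 libraries, where the share was 7.28 to 10.6%. Over the 10 libraries r was 0.780 (permutation p = 0.00539, adjusted over 20 relations 0.0359) and rho was 0.830 (permutation p = 0.00489, adjusted p = 0.0489). Without vehicle 4 and AM6545 4, the 2 libraries farthest from the median, r was 0.781. Without vehicle 4 alone r was 0.803 with an adjusted p of 0.0982 over 9 libraries. With App-206 left out of the share, r was 0.756 with an adjusted p of 0.0611.

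The App shares of the other cassettes, which partly count the same transcripts, had r = 0.860 (OX2; permutation p = 0.0007, adjusted p = 0.00700) and r = 0.874 (no exon 15; permutation p = 0.00045, adjusted p = 0.00700) with that score. Their rho values were 0.745 (permutation p = 0.0175, adjusted p = 0.101) and 0.867 (permutation p = 0.00217, adjusted p = 0.0434), and without the 2 farthest libraries r was 0.591 and 0.752. The OX2 relation was not repeated without App-206. For the KPI share of Aplp2 r was 0.440 and rho 0.515 (permutation p = 0.205 and 0.132, adjusted 0.550 and 0.364), and without the 2 farthest libraries r was 0.813. For the 36-base exon share of Aplp2 r was -0.700 and rho -0.733 (permutation p = 0.0168 and 0.0203, adjusted 0.0839 and 0.101). Without these 2 libraries r was -0.884. The Aplp2 shares mostly divide the same transcripts between them, so their opposite signs are not independent results. The 10 libraries share no known batch label, so these relations could not be repeated within batches. Mean choroid scores were 4.34 ± 1.35 with vehicle and 4.32 ± 0.723 with AM6545 (exact permutation p = 0.992). Vehicle library 4 (1.93) pulled the vehicle mean down, since vehicle libraries 1, 2, 3 and 5 all scored at least 4.82. In the AM6545 group, libraries 1, 2 and 4 scored at most 4.26, and libraries 3 and 5 scored 4.86 and 5.22. Without vehicle 4, 0 marker scores had an adjusted p under 0.05, and the KPI share of App differed by -1.47 points. Whether choroid content had a part in that difference was not tested.

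**Figure D5:**
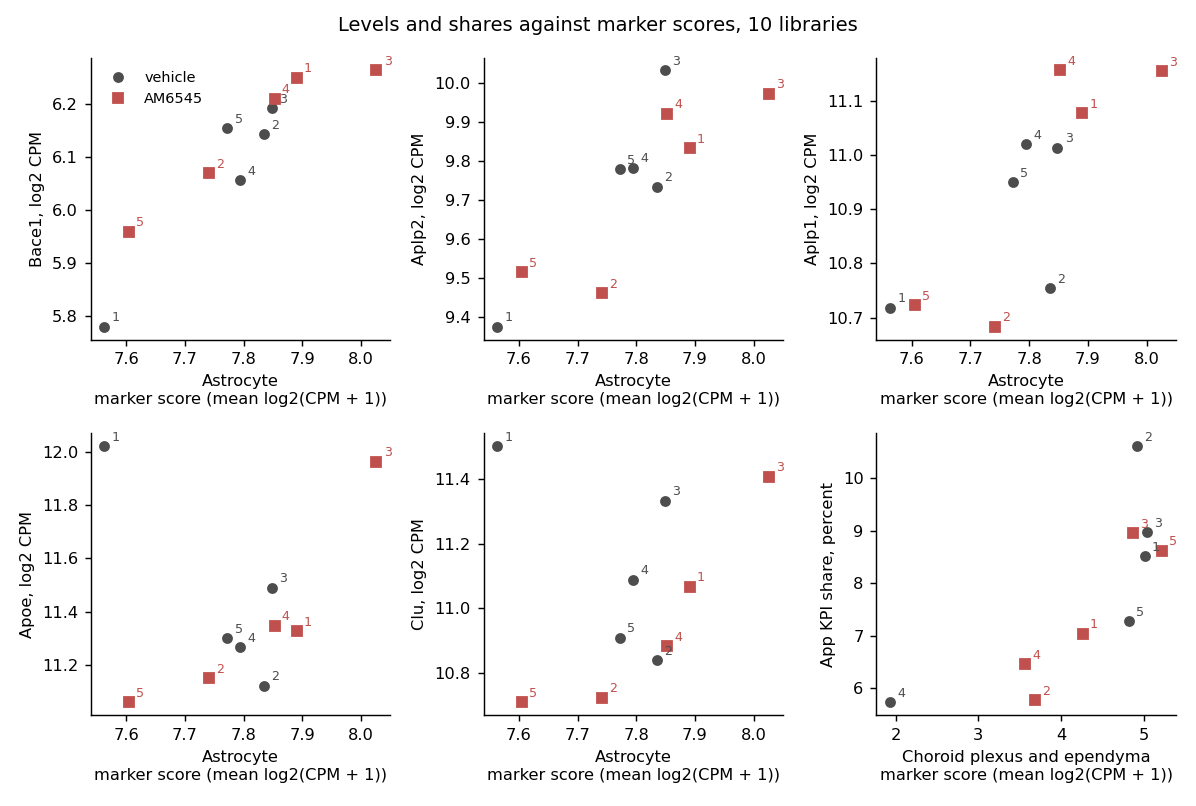
Log2 CPM of Bace1, Aplp2, Aplp1, Apoe and Clu against the astrocyte marker score, and the KPI-containing share of App in percent against the choroid plexus and ependyma score; each point is a library (circles vehicle, squares AM6545) with its replicate number. Bace1 follows the astrocyte score (r = 0.924), Apoe and Clu are high at both ends of it, and the KPI share is lowest where the choroid score is lowest, at 1.93.

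The genes most alike App, Apoe and Clu were sought among 9603 genes with a mean of at least 10 CPM, by Pearson r of log2 CPM over the 10 libraries, as a description. For App they were Ncam1, a neural cell adhesion molecule (r = 0.980), Syt11, a synaptotagmin (0.977), and Clcn4, a chloride and proton exchanger (0.969). For Apoe they were Vegfb, a growth factor (r = 0.975), H2-D1, a class I histocompatibility antigen (0.962), and C1qtnf4 (0.953). For Clu they were Tspan3, a tetraspanin (r = 0.979), Tmem101 (0.976) and Ctsa, a lysosomal carboxypeptidase (0.970). No gene appears in more than 1 of these 3 short lists.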

How the data were processed

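Total RNA of hippocampal synaptoneurosomes was sequenced; per the labels' protocols the libraries came from the SMARTer kit for ultra-low input. The authors deposited estimated counts per gene and per transcript, which were made with Salmon 1.5.2 and the mm10 build per the submitters' processing notes. The annotation release and the use of strand are not given in the sources used here. Gene symbols were assigned to 22155 of 22255 genes, and GENCODE M21 names to 101527 of 102392 transcripts, by identifier without version. Only 11 genes and 13 transcripts carried the same version suffix as M21, so its GRCm38 coordinates, lengths and exons may differ from those used for counting. No protein sequences are printed.

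Estimated counts were rounded and fitted over the whole table with edgeR 4.0.16 in R 4.3.3 (TMM, filterByExpr with minimum count 10 and minimum total 15, robust quasi-likelihood test, group as the only term, Benjamini-Hochberg adjustment, threshold 0.05). limma 3.58.1 (voom) and DESeq2 1.42.0 served as alternatives. The script was tested on simulated counts. CPM values were scaled by TMM. TPM was recomputed from the deposited estimated counts and M21 lengths. Cassette shares are percent of estimated counts over transcripts whose coding sequence spans the exon. Shares, ratios and scores were compared by two-sided exact permutation tests, and correlations by two-sided permutation tests, in Python (3.11.15; scipy 1.17.1, pandas 2.3.3, numpy 2.4.6). Without molecular identifiers, amplified reads do not each stand for a molecule, and the uncertainty of dividing reads among transcripts is not in the tables.

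The genes and lists were chosen with earlier results of these data known. Named were all 9 genes, App transcripts of at least 1 CPM, the leading transcript of each other gene, pathway genes with an unadjusted p under 0.05 and the smallest p of each list, and the 3 most alike genes of App, Apoe and Clu. Other transcripts named, the App to Aplp1 ratio, the other 35 ratios and the relations of cassette shares to marker scores were chosen after their values were seen. Replicate numbers 1 to 5 occur in both groups. The deviations of same-numbered libraries correlated at -0.24, -0.25, 0.50, 0.51 and 0.042 for numbers 1 to 5. For numbers 3 and 4 each library also matched its own number best. As this held in 2 of 5 pairs only, the numbers were not taken to pair libraries, and a replicate block served as an alternative setting.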

Additional observations from a re-analysis of the deposited data

Results flagged for a closer look

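In groups of 5, a library was noted where its gap to the nearest other took more of the range than Dixon's critical value (95% level) allows. Of 52 groups of values, 6 met this, where chance gives about 2.6. Apoe was 3993 CPM in AM6545 library 3, against 2135 to 2606 CPM in the other 4. The share of Aplp2 with the 36-base exon was 55.9% in vehicle library 4, against 50.7 to 51.9% in the other 4. The Aplp1-201 share of Aplp1 was 99.84% in vehicle library 2, against 99.93 to 99.96%. The astrocyte marker score was 7.56 in vehicle library 1, against 7.77 to 7.85. The oligodendrocyte marker score was 8.85 in vehicle library 3, against 8.44 to 8.55. The choroid plexus and ependyma marker score was 1.93 in vehicle library 4, against 4.82 to 5.03, and this library also had the lowest KPI-containing share of App.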

How the results depend on the processing

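For the fold changes of the 9 genes, 180 results under 20 alternative settings gave 154 with the same sign and 26 with the opposite sign, in App, Aplp2, Adam10 and Apoe, and 0 passed the threshold. The opposite signs for Aplp2 were -0.0053 (DESeq2 size factors and DESeq2 Wald test), -0.0892 (astrocyte score as covariate), -0.00050 (at least 10 counts in every library), -0.0413 (voom) and -0.00031 (replicate block). For Adam10 they were -0.0041 (both DESeq2 settings), -0.0459 (astrocyte score), -2.9e-05 (at least 10 counts) and -0.0831 (voom). Leaving out each library in turn gave log2 fold changes of -0.102 to 0.0218 for App, -0.0805 to 0.0789 for Aplp2, -0.0879 to 0.0661 for Adam10, -0.251 to 0.105 for Apoe, -0.0924 to 0.0293 for App-201, -0.123 to 0.0754 for App-206 and -0.217 to 0.0990 for App-203, and a difference of -0.299 to 0.141 points for the share without exon 15. App turned positive without AM6545 2, AM6545 5 or vehicle 3, and Apoe without AM6545 5 or vehicle 1. The App to Aplp1 ratio difference ran from -0.14 to -0.09 (log2) with exact permutation p of at most 0.0476.

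With the replicate block the ratio had an exact sign-flip p of 0.0625, the smallest that 5 pairs allow, App-203 had a log2 fold change of 0.0058, and the number of transcripts with an adjusted p under 0.05 was 0 in place of 1. With the replicate block no other call of the 9 genes changed. The number of genes with an adjusted p under 0.05 was 1 with voom and 0 to 1 with each library left out, that with an unadjusted p was 706 with voom, 433 with no filter and 165 (without AM6545 4) to 578 (without vehicle 2) with each library left out. The number of transcripts with an adjusted p under 0.05 was 11 with the DESeq2 Wald test, 2 without robust estimation and with no filter, 0 with voom and with at least 10 counts in every library, and 0 to 4 with each library left out, and that with an unadjusted p was 1254 with voom, 2849 with no filter and 530 to 943 with each library left out. Without vehicle 4, 1 of the 36 marker relations passed in place of 2. Without vehicle 5, 1 pathway gene had an unadjusted p under 0.05, and 0 without any other single library. The cause of these shifts was not tested. Depth limits the values of low counts, such as those of Psen2 (357.3 to 569.0 counts) and its transcript Psen2-205 (167.9 to 381.8 counts).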
